A study of Mus musculus with 4 samples.

Results

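The longest unbroken stretches of H3K36me3 were taken from island lists of wild-type mouse myocytes and of myocytes with a deletion of a muscle-specific H19/Igf2 enhancer, and each was looked up in the list of the other genotype. Members were all islands of 20 kb or more on 15 autosomes, that is without chromosomes 4, 6, 14 and 15. There were 622 members in the mutant list, of 69798 islands in all, and 778 in the wild-type list, of 58326 islands in all. They were chosen by their measured length in their own list, so those lengths are a description. The deposited scores come from the same reads as the lengths and are likewise given as a description, whereas the other library's list was not used to choose members of a list.

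The series profiled trimethylation of histone H3 by ChIP-seq with 1 H3K36me3 library per genotype and input DNA, which was not analysed here. The mutant cells (labelled VV) carry the enhancer deletion, the wild-type cells (WT) do not, and each is described as a myocyte line of the FVB strain. The antibody was Abcam ab9050. Both lines were grown from skeletal muscle myoblasts of postnatal day 4 for 5 to 10 passages in cosmic calf serum with fetal growth factor, and were harvested 24 hours after the growth factors were withdrawn. The sources used here do not say whether a line came from 1 animal or from several. With 1 library per genotype there was no replicate spread and no test of genotype. The labelled cell type could not be checked against marker genes, since the deposited lists name no genes, and the gene table used here is of another build (GRCm38) than the islands (mm9).

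H3K36me3 is placed by the methyltransferase SETD2, which travels with elongating RNA polymerase II, so the mark lies over the bodies of transcribed genes and tends to be stronger away from the promoter. Readers of the mark help to keep transcription from starting inside genes and guide DNA methylation to gene bodies. A long run of the mark can lie over a long transcribed gene or over several neighbours, and muscle transcribes some of the longest genes of the genome. The H19/Igf2 locus, where the enhancer was deleted, is an imprinted region with a growth factor gene and a noncoding RNA gene.

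An island was a run of 200 bp windows with enough reads, in which up to 3 windows in a row below the read limit were bridged. The mean number of reads per window, solved from the deposited scores, was 3.11 in the mutant library and 2.82 in the wild-type library. The smallest read count of a window seen in islands of 2 windows was 6 in the mutant list and 5 in the wild-type list, which is 1.93 and 1.77 times the mean. If reads fell at random at these means, 9.50% of mutant windows and 15.5% of wild-type windows would reach those counts. The read limit was thus set higher above the mean in the mutant list. The lowest score of a whole island, in contrast, was lower in the mutant list, at 22.6 against 30.3 in the wild-type list. The part of either limit in the differences below was not tested.

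Members made up 1.14% of the 54525 mutant islands and 1.74% of the 44597 wild-type islands on the 15 autosomes, and held 7.0% and 8.89% of the covered length. They spanned 16.1 Mb in the mutant and 20.8 Mb in the wild type, a ratio in number of 0.799. Most were only a little longer than the limit, with median lengths of 23600 bp in the mutant and 24300 bp in the wild type. There were 119 mutant and 178 wild-type members of at least 30 kb, and 21 and 37 of at least 40 kb. In length they reached 75 kb in the mutant and 75.4 kb in the wild type. Just inside the length limit lay 23 mutant and 29 wild-type islands of 20000 bp, with median shares covered by the other list of 98.0% and 89.0%. Just outside it lay 30 mutant and 33 wild-type islands of 19800 bp, with 94.4% and 90.9%.

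Broad islands were also dense by the score of their own list. A score per window is the deposited island score divided by the number of windows, and it grows with depth, so it was read within a list only. Its median was 5.43 among mutant members, against 3.92 over all mutant islands of the 15 autosomes, and 5.14 among wild-type members, against 3.58 over all wild-type islands there. Islands of 10 to under 20 kb lay in between, with medians of 4.90 in the mutant and 4.37 in the wild type, so higher density was not particular to members. The middle 50% of members ran from 4.51 to 6.49 in the mutant and from 4.33 to 6.28 in the wild type. The 50 kb flanks on both sides of a member were covered to a median of 41.3% in the mutant and 41.2% in the wild type by islands of the same list. Around islands of 10 to under 20 kb those medians were 40% and 38.8%. Another member of the same list lay within 10 kb of 9.81% of mutant and 10.0% of wild-type members, and within 100 kb of 30.9% and 35.9%.

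Nearly all broad islands of either genotype were still marked in the other, either whole or in pieces, and very few were lost. A member was called kept whole where a single island of the other list covered at least 80% of it. It was called broken where the other list covered at least 50% of it with several islands, none of which reached 80%. Members covered to at least 50% by a single island that did not reach 80% were called shortened, those covered from 10% to under 50% mostly uncovered, and those under 10% lost. Intervals of shares are exact Clopper-Pearson 95% intervals, which cover counting error only, and neighbouring islands are not independent. Islands picked for length in a list tend to be shorter in any other list. Without replicate libraries, how often members would be broken between libraries of the same genotype is not known.

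Among mutant members, 310 (49.8%, interval 45.8% to 53.8%) were broken in the wild-type list and 296 (47.6%, interval 43.6% to 51.6%) were kept whole there. Over all mutant islands of the 15 autosomes, of any length, 6.55% were broken and 51.7% kept whole. Among wild-type members, 500 (64.3%, interval 60.8% to 67.6%) were broken in the mutant list and 261 (33.5%, interval 30.2% to 37.0%) were kept whole, where 12.9% and 45.8% of all wild-type islands were. The broken share of mutant members minus that of wild-type members was -14.4 percentage points, and the kept share differed by 14.0 points. In the lists as deposited, wild-type broad islands were thus in pieces in the mutant list more often than the reverse. The order turned, with a difference of 3.14 points (interval 0.51 to 5.77), when islands within 2 kb were joined in both lists. With gaps of up to 2 kb filled in the other list alone the difference was -2.47 points, with an interval from -5.89 to 0.96 that includes no difference. Intervals of differences are approximate. They combine those of both shares as if the lists were independent, cover counting error only, and are no test of genotype.

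Lost members were rare in both directions. There were 4 lost mutant members (0.643%, interval 0.175% to 1.64%), against 26% of all mutant islands, and 2 lost wild-type members (0.257%, interval 0.0311% to 0.926%), against 16.7% of all wild-type islands. Mostly uncovered were 4 mutant members (0.643%) and 13 wild-type members (1.67%), where the shares over all islands were 4.32% and 8.62%. Shortened were 8 mutant members (1.29%) and 2 wild-type members (0.257%), against 11.4% and 15.9% of all islands. These shares over all lengths are a background and not a matched group, since most islands were under 5 kb and, of those, 1.31% in the mutant and 3.40% in the wild type were broken and 33.6% and 22.8% lost.

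**Figure D1:**
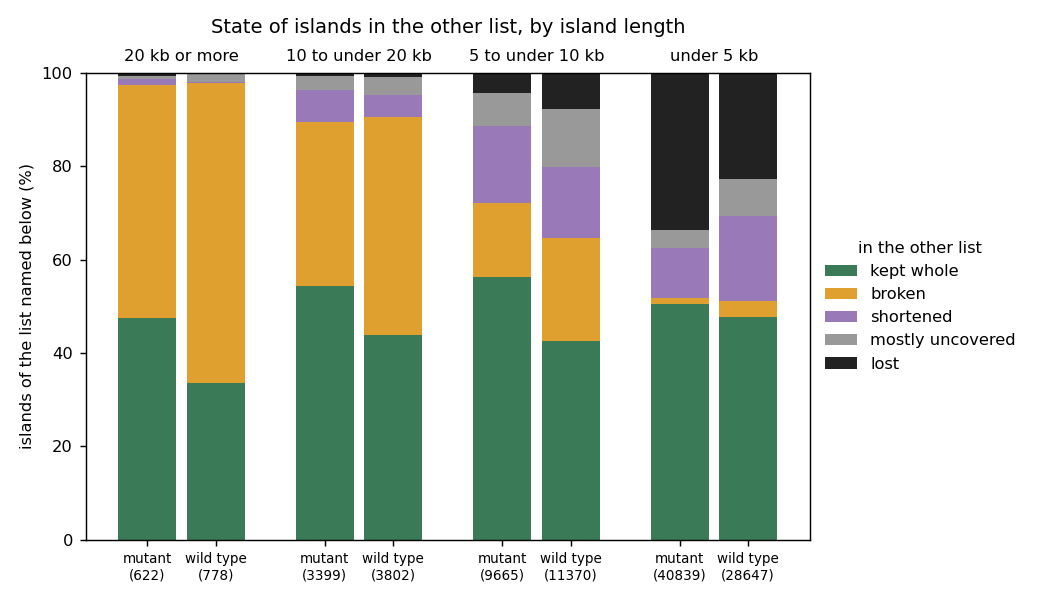
Percentage of islands of each list, mutant left and wild type right in each pair, that were kept whole, broken, shortened, mostly uncovered or lost in the other list, for 4 length classes with the number of islands in brackets. Among islands of 20 kb or more the black lost part is 0.643% for the mutant and 0.257% for the wild type, and the orange broken part is 49.8% and 64.3%.

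The same order of the lists was found in the next length class, so it was not seen in broad islands alone. Of islands of 10 to under 20 kb, 35.1% of 3399 mutant and 46.7% of 3802 wild-type islands were broken in the other list, and 54.3% and 43.8% were kept whole. Lost were 0.618% of mutant and 0.789% of wild-type islands of that length, so loss was rare there too. The mutant share was close to the 0.643% among members. The wild-type share (interval 0.533% to 1.12%) was higher than the 0.257% among members, which rests on 2 lost members (interval 0.0311% to 0.926%). Broad islands have more room for gaps, and counted per length they held about as many as islands of 10 to under 20 kb. Gaps between overlapping islands of the other list numbered 3.46 per 100 kb of mutant members and 5.01 per 100 kb of wild-type members. In islands of 10 to under 20 kb they numbered 3.55 and 5.21, and in those of 5 to under 10 kb 2.63 and 3.88. No test of the difference between length classes was made.

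Most broad islands were covered over most of their length in the other library. The median share of a member covered by the other list was 94.2% for mutant members and 92.0% for wild-type members, and the lower quartiles were 88.4% and 85.6%. At least 90% was covered in 441 mutant members (70.9%) and 460 wild-type members (59.1%). Full cover was found in 115 mutant members (18.5%) and 70 wild-type members (9.0%), and less than 50% in 8 and 15. Broken members were covered to medians of 90.7% in mutant members and 89.0% in wild-type members. The lowest share among broken members was 50%, as the definition sets.

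Broken mutant members were overlapped by a median of 2 wild-type islands, and broken wild-type members by a median of 3 mutant islands. Over all members, broken or not, the means were 1.89 wild-type islands per mutant member and 2.34 mutant islands per wild-type member. Wholly inside members lay 629 wild-type islands in the mutant members and 1193 mutant islands in the wild-type members, a mean of 1.01 and 1.53 per member. A single overlapping island was found for 253 mutant and 193 wild-type members, 2 for 219 and 289, and 3 for 109 and 181. The most were 6 wild-type islands over a mutant member, seen in 2 members, and 8 mutant islands over a wild-type member, seen in 1. The longest of the overlapping islands had a median length of 15000 bp over broken mutant members and 14600 bp over broken wild-type members, against 26200 bp and 24000 bp over kept ones. The definition of the classes sets much of this contrast, since only kept members have a single island that reaches the limit for kept whole. Parts of the longest island outside the member were counted in its length. The longest overlapping island reached 20 kb itself for 323 of 622 mutant members (51.9%) and 325 of 778 wild-type members (41.8%).

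**Figure D2:**
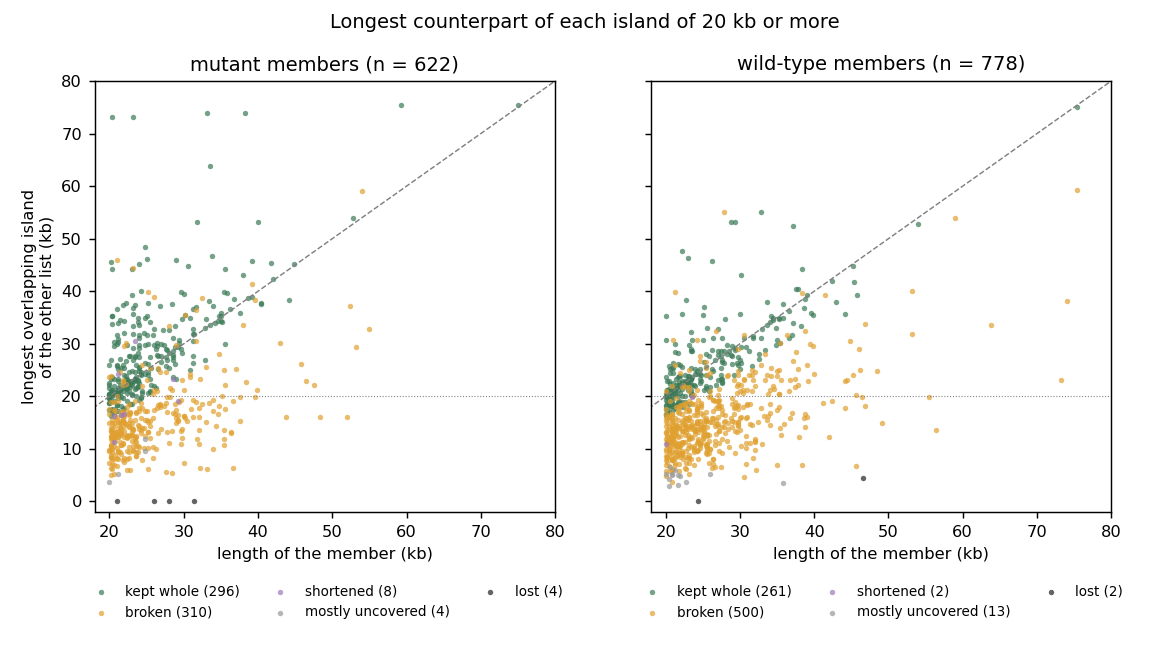
Length of each member in kb (horizontal) against the length in kb of the longest overlapping island of the other list (vertical), for 622 mutant members (left) and 778 wild-type members (right), coloured by class. The dashed line marks equal lengths and the dotted line 20 kb. Most orange broken members lie below the dashed line, in a band around 15 kb, and some lie above it where the other list's island runs past the member. At 0 lie 4 mutant members and 1 wild-type member.

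Islands over broken members were less dense, by the scores of their own list, than islands over kept ones. Ranked by score per window within their own list, wild-type islands over kept mutant members stood at a median percentile of 82.8, and those over broken mutant members at 69.7. Mutant islands over kept wild-type members stood at 81.2, and those over broken wild-type members at 68.7. The definition of the classes may set part of this contrast, since a kept member needs a single long island of the other list. Long islands had higher scores per window in both lists, with medians of 5.43 in the mutant and 5.14 in the wild type at 20 kb or more. Under 5 kb they were 3.75 and 3.47. Islands of equal length were not compared. Over the mostly uncovered members the medians were 48.1 for 4 mutant members and 23.2 for 13 wild-type members.

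The mutant members with the most wild-type islands inside were on chromosomes 5 and 3, where the third was the longest of 12 members tied at 4 islands inside. On chromosome 5 a mutant island of 36.6 kb (65668401 to 65705000) faced 6 wild-type islands of 1.4 to 6.4 kb, which covered 62.8%. Another, on chromosome 3 (108460401 to 108492600, 32.2 kb), faced 6 wild-type islands that covered 77.0%, with a widest gap of 1.2 kb. On the same chromosome 5 a mutant island further along (145582401 to 145630800, 48.4 kb) faced 4 wild-type islands that covered 82.2%, the longest of 16.0 kb.

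With the genotypes exchanged, the wild-type members with the most mutant islands inside were on chromosomes 7, 11 and 18, where that on chromosome 18 was the longest of 4 members tied at 6 islands inside. Over the chromosome 7 member (56662201 to 56718600, 56.4 kb) the mutant list held 7 islands of 0.8 to 13.6 kb that began and ended at the same positions as the wild-type island and covered 83.7% of it. Over the chromosome 11 member (58885201 to 58930800, 45.6 kb) the mutant list held 8 islands of 1.4 to 6.8 kb, which covered 74.6%, and the outer ends differed by 200 bp on each side. On chromosome 18 (75689401 to 75726200, 36.8 kb) 6 mutant islands covered 70.7%, the longest of 15.8 kb, and the low end lay 1.8 kb farther in. In these 3 regions the outer ends of both libraries were at most that far apart. That the mutant list held several islands inside a single wild-type island there follows from how the regions were chosen.

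Very long islands were broken as well. A mutant island of 55 kb on chromosome 3 (97508801 to 97563800) faced wild-type islands of 32.8 and 27.8 kb with a gap of 1200 bp. In the other direction, the mutant list held 3 islands of 59.2, 12.2 and 5.4 kb over a wild-type island of 75.4 kb on chromosome 2 (76542201 to 76617600), with gaps of at most 1000 bp. The mutant island of 59.2 kb there (76539001 to 76598200) was the second longest mutant member. It was itself kept whole, since the wild-type island covered 94.6% of it, so this place was in both classes. On chromosome 1 it held islands of 33.2 and 38.2 kb over a wild-type island of 74.0 kb (34294001 to 34368000), with a single gap of 800 bp. The longest mutant member, on chromosome 11 (3025201 to 3100200), and its wild-type counterpart (3024801 to 3100200), which tied in length with the chromosome 2 island, were kept whole.

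**Figure D3:**
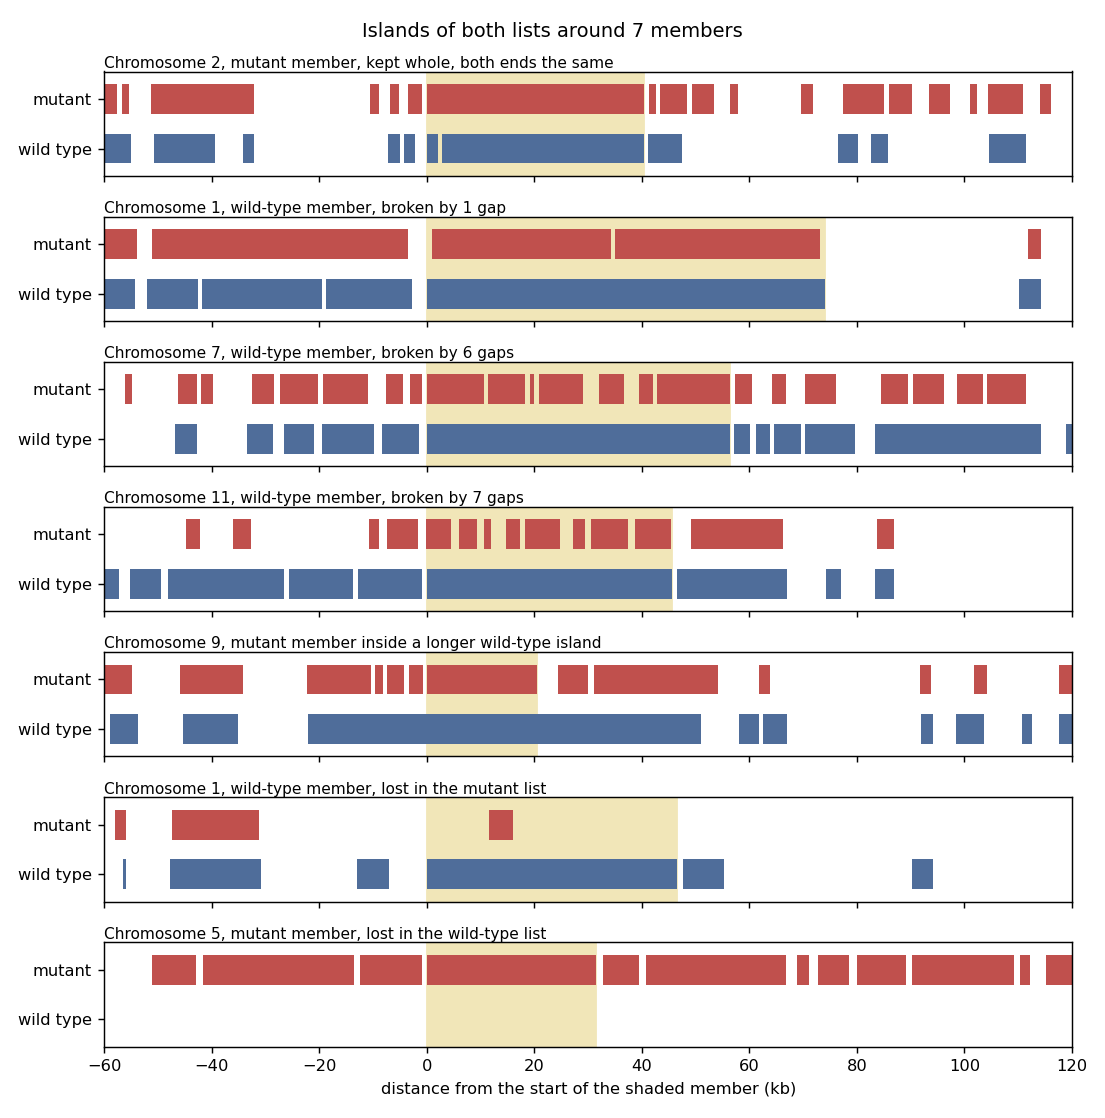
Islands of the mutant list (red, upper row) and the wild-type list (blue, lower row) around 7 members, with distance in kb from the start of the member, which is shaded. The chromosome 7 and chromosome 11 wild-type members are cut by 6 and 7 gaps in the mutant and are single islands in the wild type. The chromosome 5 mutant member at the bottom has no wild-type island in the whole view.

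Gaps that broke members were narrow. Islands end where at least 4 windows in a row lie below the read limit, so 800 bp is the narrowest gap the lists can hold. Of 498 wild-type gaps inside broken mutant members, 41.8% were exactly 800 bp, 63.9% at most 1 kb and 84.3% at most 2 kb. Of 946 mutant gaps inside broken wild-type members, 45.5% were 800 bp, 64.4% at most 1 kb and 87.7% at most 2 kb. The median was 1000 bp in both, and the widest were 7000 bp and 8600 bp. Between all neighbouring islands of the 15 autosomes, inside members or not, 12.8% of gaps in the mutant list and 10.9% in the wild-type list were 800 bp wide. Their median widths were 4000 bp in the mutant list and 6000 bp in the wild-type list. These gaps are no matched group, since they also span unmarked stretches of any width. Inside broken members the definition of the class keeps wide gaps out, so it sets part of this contrast. How large that part is was not tested.

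Many members were cut by such short gaps alone. In 161 of 310 broken mutant members (51.9%) and 247 of 500 broken wild-type members (49.4%) no gap was wider than 1 kb. In 240 (77.4%) and 396 (79.2%) none was wider than 2 kb, and a gap of at least 5 kb was found in 8 and 9. All gaps together took 690.4 kb of the broken mutant members and 1218.4 kb of the broken wild-type members. With each member cut into 5 equal stretches, the outermost ones held 10.0% and 12% of the gaps in broken mutant members, and 13.6% and 14.2% in broken wild-type members. Each of the inner stretches held 25.3% to 26.7% in mutant and 23.0% to 25.8% in wild-type members. A gap was counted only between islands that both overlapped the member, so a stretch uncovered at an end counted as a shifted end instead.

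**Figure D4:**
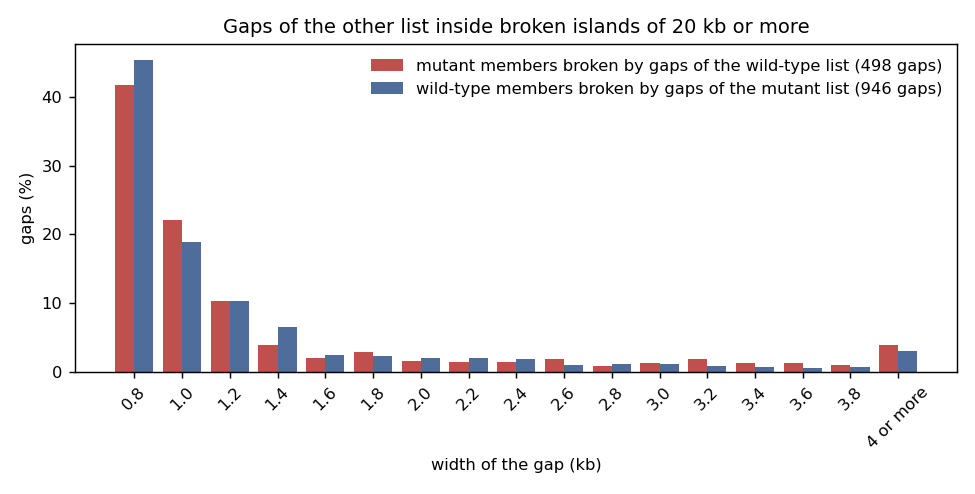
Width in kb of the gaps of the other list inside broken members (horizontal) against the percentage of all such gaps (vertical), with 498 gaps in mutant members in red and 946 in wild-type members in blue. In both, the bar at 0.8 kb, the narrowest gap the lists can hold, is the highest, at 41.8% and 45.5%.

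When narrow gaps were bridged, the shortage of broad islands in the mutant was not kept. With islands joined across gaps of up to 1 kb in both lists, 1700 mutant and 1730 wild-type islands reached 20 kb, a ratio of 0.983. With gaps of up to 2 kb joined there were 2743 mutant and 2500 wild-type islands, a ratio of 1.1, so that the order of the libraries turned. The broken share was then 41.4% of mutant and 46.6% of wild-type members at 1 kb, and 37.7% and 34.5% at 2 kb. The difference between the directions, -14.4 percentage points as deposited, was thus -5.24 at 1 kb and 3.14 at 2 kb. With members unchanged and gaps filled in the other list alone, 22.5% of mutant and 29.9% of wild-type members were broken at 1 kb, and 10.1% and 12.6% at 2 kb. The counts of lost members were 4 and 2 with either filling.

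**Figure D5:**
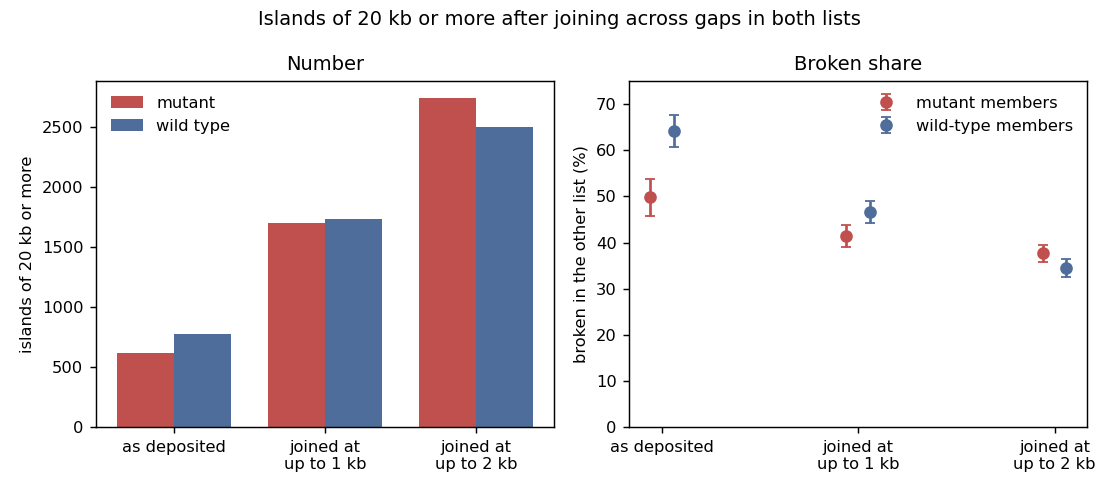
Number of islands of 20 kb or more (left) and percentage of them broken in the other list with exact 95% intervals (right), as deposited and after joining islands across gaps of up to 1 kb and 2 kb in both lists, mutant in red and wild type in blue. The mutant bar is below the wild-type bar as deposited (622 and 778) and above it after joining at 2 kb (2743 and 2500), and the broken shares change order as well.

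Outer ends of members lay about as close together in the 2 libraries as the ends of other islands, or slightly less close. The shift of an end was the distance from the member's own end to the outermost end of the overlapping islands of the other list, positive where the other list reached farther out. Its median was 0 bp over 1236 ends of mutant members and 0 bp over 1554 ends of wild-type members. Exactly the same position was found for 15.5% and 16.5% of ends, and the position was within 1 kb for 56.9% and 61.4%. Over all islands of the 15 autosomes with a counterpart, the same position was found for 17.4% of ends in the mutant list and 18.9% in the wild-type list, and a position within 1 kb for 61.1% and 66.3%. The other list reached farther out at 49.9% of mutant members' ends and stopped short at 34.5%, against 42.9% and 40.6% of wild-type members' ends. Outward shifts of at least 5 kb were found at 14.2% and 8.62% of ends, and inward ones at 1.29% and 1.22%. An end moved out by far where the member met a longer island of the other list, so outward shifts have no ceiling, whereas inward shifts are limited by the member's length.

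Ends of broken members were nearly as stable as those of members kept whole. Among mutant members, 56.8% of the ends of broken ones and 58.8% of the ends of kept ones lay within 1 kb of the other list's end. Among wild-type members the shares were 60.8% and 64.8%. Both ends were identical in 7 mutant and 4 wild-type members kept whole. A pair of these was the same island in both lists, on chromosome 7 (148416801 to 148441000, 24.2 kb). Other wild-type members with an identical mutant island were on chromosome 18 (35405801 to 35429400, 23.6 kb) and chromosome 13 (101466001 to 101488600, 22.6 kb). Among mutant members of this kind the longest lay on chromosome 2 (60590401 to 60630800, 40.4 kb), where the wild-type list held islands of 2.0 and 37.6 kb with an 800 bp gap.

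The largest mean outward shifts were found where a member met a longer island of the other list that ran past one or both of its ends. On chromosome 9 mutant members of 20.4 kb (119416201 to 119436600) and 23.2 kb (119447201 to 119470400) met the same wild-type island of 73.2 kb (119394001 to 119467200), which covered the first fully and 86.2% of the second. On chromosome 7 a mutant member of 23.2 kb (29854001 to 29877200) bridged wild-type islands of 30.6 and 44.4 kb. Among wild-type members, that on chromosome 3 (97543001 to 97570800, 27.8 kb) had the largest mean outward shift, 16.1 kb, and its start moved out by 34.2 kb to the start of the mutant island of 55 kb given above. The one on chromosome 10 (68697801 to 68727200, 29.4 kb) faced mutant islands of 2.8 and 53.2 kb, and its far end moved out by 27.8 kb. On chromosome 12 a wild-type member of 21.0 kb (84869401 to 84890400) faced mutant islands of 16.4 and 30.8 kb.

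Inward shifts were led by members that were shortened, mostly uncovered or lost. Of mutant members, the one on chromosome 12 (20223401 to 20248200, 24.8 kb) faced a wild-type island of 9.6 kb. Those on chromosome 1 (191654001 to 191683200, 29.2 kb) and chromosome 8 (73838201 to 73858800, 20.6 kb) faced wild-type islands of 19.2 and 11.4 kb. Of wild-type members, those on chromosome 11 at 58796201 to 58817400 (21.2 kb) and at 100228601 to 100248600 (20 kb) faced mutant islands of 6.0 and 5.2 kb, after a lost member on chromosome 1 that is described below.

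Denser members were kept whole more often in both directions. With members cut into 4 equal groups by score per window in their own list, the broken share among mutant members was 61.5% in the lowest group (interval 53.4% to 69.2%), 51.6% and 48.4% in the middle groups and 37.8% in the highest (interval 30.2% to 45.9%). Among wild-type members it was 72.8% in the lowest group (interval 66.0% to 78.9%), 66.0% and 63.9% in the middle groups and 54.4% in the highest (interval 47.1% to 61.5%). Kept whole were 33.3% of the lowest and 59.6% of the highest group of mutant members, and 21.5% and 45.1% of those of wild-type members. Gaps of the other list numbered 4.57 per 100 kb in the lowest and 2.25 in the highest group of mutant members, and 6.45 and 3.82 in those of wild-type members. Across members the Spearman correlation of score per window with the share covered was 0.24 over 622 mutant members and 0.26 over 778 wild-type members. It is a description, since members share a library and lie near each other.

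Length itself was weakly related to the share covered, with correlations of 0.06 in mutant and 0.08 in wild-type members. The broken share was 48.3% for mutant members of 20 to under 25 kb (interval 43.1% to 53.4%) and 52.4% for the 21 of at least 40 kb (interval 29.8% to 74.3%). For wild-type members it was 60.6% (interval 55.7% to 65.3%) and 75.7% (37 members, interval 58.8% to 88.2%). The gaps per 100 kb were 3.62 and 2.45 in those classes of mutant members, and 5.06 and 4.31 in wild-type members, so gaps were not denser in members of at least 40 kb. The intervals of the broken shares overlapped between the length classes of each list.

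Members called lost, that is under 10% covered by islands of the other list, fell in few places. Reads and input DNA in these places were not examined. Of the 4 lost mutant members, 3 lay side by side on chromosome 5 (113126401 to 113154400, 113168001 to 113199400 and 113208801 to 113234800), with lengths of 28.0, 31.4 and 26.0 kb. Their scores per window were 4.88, 7.56 and 6.65, the first below and the others above the median of mutant members. Around them the mutant list covered 54.6% to 88.4% of the 50 kb flanks and the wild-type list 0%. The fourth, on chromosome 10 (86442201 to 86463200, 21.0 kb), had flanks covered to 39.2% in the mutant and 4.8% in the wild type. In both places the stretch left almost empty in the wild-type list was wider than the members themselves.

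There were 2 lost wild-type members. The one on chromosome 18 (61960401 to 61984800, 24.4 kb) had no overlapping mutant island, and its flanks were covered to 30.4% in the mutant and 59.4% in the wild type. That on chromosome 1 (137964001 to 138010600, 46.6 kb) held a single mutant island of 4.4 kb, which covered 9.44% of it. There the flanks were covered to 16.2% in the mutant and 34.6% in the wild type. Their wild-type scores per window, 6.21 and 5.61, were above the median of wild-type members, so neither was among the thinly marked members.

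Most of the other weakly covered wild-type members were thin in their own list. Of the 15 wild-type members covered below 50%, 10 had a score per window below the lower quartile of wild-type members. Of the 8 mutant members covered below 50%, 2 lay below the lower quartile of mutant members. Own scores per window of the 15 ran from 2.50 on chromosome 11 (20405801 to 20426600) to 6.89 on chromosome 7 (88208801 to 88244600, 35.8 kb, 39.7% covered by 5 mutant islands). Some lay next to each other, with 4 of the 15 within 100 kb of another such member. A pair on chromosome 7 (123277001 to 123303000 and 123313201 to 123334000) was covered to 35.4% and 31.7%. A pair on chromosome 11 (58796201 to 58817400 and 58837001 to 58858600) was covered to 28.3% and 26.9%. The chromosome 11 wild-type member with 8 mutant islands, given above, lies next along that chromosome after this pair. The lowest cover after the lost members was on chromosome 7 (134129401 to 134149800), at 24.5%.

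Weak cover of a member mostly went with weak cover around it. In 7 of 8 mutant and 14 of 15 wild-type members covered below 50%, the 50 kb flanks were less covered by the other list than by the member's own. Over all members that was so for 43.9% of mutant and 55.9% of wild-type members. The median cover of the flanks of these weakly covered members was 46.9% by the mutant and 2.4% by the wild-type list around the 8 mutant members. It was 20.4% by the mutant and 34.8% by the wild-type list around the 15 wild-type members. The 8 mutant members include the 3 neighbours on chromosome 5, whose flanks overlap.

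Mutant members that were mostly uncovered were also scattered. They lay on chromosome 12 (given above), chromosome 1 (33778001 to 33802800, 38.7% covered), chromosome 2 (76797801 to 76819000, 42.5% covered) and chromosome 8 (11423401 to 11443400, 35.0% covered). The chromosome 8 member had one of the 3 lowest scores per window of mutant members, 3.06, after chromosome 2 at 32094401 to 32114600 (2.77) and 92244801 to 92267000 (2.99). The last of these was nonetheless fully covered by a wild-type island of 23.8 kb. The 3 lowest among wild-type members, on chromosome 11 (20405801 to 20426600), chromosome 16 (8643201 to 8663400) and chromosome 12 (82819601 to 82841600), had 2.50, 2.54 and 2.62 and were covered to 48.1%, 57.4% and 36.4% in the mutant.

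At the other extreme, 2 members of each list had 50 or more score units per window, on chromosome 9 (2999801 to 3038400 in the mutant and 2999801 to 3038600 in the wild type) and on the already named part of chromosome 11. Their scores per window were 929 and 88.2 in the mutant and 891 and 56.0 in the wild type. Whether input DNA has an excess of reads there was not analysed here, so these values are given as scores only. Next in both lists came chromosome 8, where a mutant island from 19987001 to 20026200 and a wild-type island from 19967601 to 20009000 overlapped with shifted ends and had scores per window of 33.5 and 31.0. Without the 2 members of each list at 50 or more, the broken shares were 50% of mutant and 64.4% of wild-type members.

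Counted by place, fewer than 1 in 3 broad regions were broad in both libraries, and most of the rest held an island of 10 kb or more in the other. Most members were only a little longer than the limit, and the share of regions broad in both of a pair of replicate libraries could not be measured. When overlapping members of both lists were merged there were 1068 regions, of which 299 (28.0%) were broad in the mutant alone, 453 (42.4%) in the wild type alone and 316 (29.6%) in both. In regions broad in the mutant alone the longest wild-type island had a median length of 14000 bp, and it reached 10 kb in 81.9% of them. In regions broad in the wild type alone the longest mutant island had a median length of 13800 bp and reached 10 kb in 79%. An island under 5 kb or none was the longest of the other list in 5 and 11 regions. Of the summed length of all 1068 regions, 92.3% was covered in the mutant and 95.1% in the wild type, from which more of the members came.

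The difference between the directions was spread over the chromosomes. On each of the 15 autosomes a smaller share of mutant members than of wild-type members was broken in the other list. The gap was narrowest on chromosome 10, at 67.4% of 46 mutant and 69.2% of 52 wild-type members, and wide on chromosome 8, at 43.2% of 44 and 73.5% of 68. Members were fewer in the mutant on 13 of the 15 autosomes, with ratios from 0.614 on chromosome 12 (27 and 44 members) to 1.04 on chromosome 18 (27 and 26). Chromosome 5 also had slightly more in the mutant, 77 and 75. These counts per chromosome are small, and no single chromosome was tested.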

How the data were processed

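The authors deposited 1 island list per H3K36me3 library, with a position and a score for each island. The tools were Bowtie 1.0.0 and SICER 1.1 with build mm9, per the submitters' processing notes. The windows of 200 bp and gaps of 600 bp are in the names of the deposited lists, and all starts and lengths are multiples of 200 bp. Use of the input libraries, removal of duplicate reads and read totals were not stated in the sources. Coordinates are counted from 1.

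Every island of the 15 autosomes was compared with the whole list of the other library, with numpy 2.4.6 and pandas 2.3.3 under Python 3.11.15, intervals were computed in scipy 1.17.1, and plots were drawn in matplotlib 3.10.9. Reads per window were solved from scores of islands 1 window long (14 mutant and 8 wild-type islands) as negative natural logs of Poisson probabilities. The computations were tested on simulated depths and on an altered wild-type list. Named regions were the 3 at each extreme of length, pieces, cover, end shift, identical ends and score per window in each list, plus those covered below 50%, which were added after their values were seen. The members and lists were chosen with earlier results of these data known. Alternatives were other length minimums, class limits and score filters, joined or filled gaps, and other sets of chromosomes; a median was read as moved when it left the order-statistic binomial 95% interval of the reported one.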

Additional observations from a re-analysis of the deposited data

How the results depend on the processing

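No paired analysis was possible because each genotype had 1 library. The cause of the changes below was not tested, and depth was not varied. Of 158 values under alternative settings, 104 stayed within the counting interval of the reported value (or, for the ratio in number, within 1.5 times), 51 moved out of it and 3 changed direction. The 3 came with islands within 2 kb joined in both lists: the ratio in number was 1.1, the difference in broken share 3.14 points and the difference in kept share -7.19 points. At 1 kb these differences were -5.24 and 4.06, and with gaps filled in the other list alone they were -7.44 and 6.70 (1 kb) and -2.47 and 1.86 (2 kb). In all other settings the broken share was lower and the kept share higher for mutant than for wild-type members. An equal number of members fixes the ratio at 1, so it gave no value. It also leaves the mutant members unchanged, so their own values could only repeat the reported ones. Dropping islands under 2 kb from the other list cannot remove an island that keeps a member whole, so the kept shares repeated too. The ratio and the kept shares were also exactly as reported in the upper 50% by score. The 104 values include such repeats, which are no sign of stability.

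Broken shares of mutant and wild-type members were 44.2% and 58.0% from 15 kb, 55.5% and 68.5% from 30 kb, 41.4% and 46.6% joined at 1 kb, 37.7% and 34.5% joined at 2 kb, 22.5% and 29.9% filled at 1 kb, 10.1% and 12.6% filled at 2 kb, 44.9% and 60.4% in the upper 50% by score, 41.8% and 54.9% with kept whole from 70%, and 56.1% and 72.0% with kept whole from 90%. Kept shares were 53.9% and 49.9% joined at 1 kb, 53.8% and 61.0% joined at 2 kb, 74.4% and 67.7% filled at 1 kb, 86.8% and 85.0% filled at 2 kb, 56.6% and 43.1% from 70%, and 38.6% and 23.4% from 90%. From 15 kb the wild-type kept share was 39.1%. Median shares covered were 95% and 93.9% from 30 kb, 93.2% and 93.1% joined at 1 kb, 90.4% and 93.9% joined at 2 kb, 97.8% and 95.3% filled at 1 kb, and 99.2% and 98.7% filled at 2 kb, and for wild-type members 91.1% in the upper 50%. The median outward end shift was 1300 and 800 bp filled at 2 kb, and 200 bp for wild-type members filled at 1 kb.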

Other observations

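On the 4 autosomes that the rule leaves out, broad islands by the same length limit were counted too. There were 46 in the mutant and 85 in the wild type on chromosome 4, 146 and 153 on chromosome 6, 13 and 26 on chromosome 14, and 95 and 63 on chromosome 15. On chromosome 15, 65.3% of the mutant islands were broken in the wild-type list and 44.4% of the wild-type islands in the mutant list. That order is opposite to the order on the other 18 autosomes. On chromosome 4 the shares were 52.2% and 78.8%. With all 19 autosomes the broken shares were 50.5% of 922 mutant and 61.9% of 1105 wild-type islands.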
